A study of Mus musculus with 4 samples.

Results

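The sarcomere and contractile genes are 42 named genes for the protein parts of the muscle contraction machinery. Members were chosen by gene name from the gene-level expression table, and all 42 were found among its 55267 entries. All 42 had a mean of at least 1 TPM (transcripts per 1000000, a level corrected for transcript length and library size) and were among the 13128 entries tested. RNA-seq was done on cultures of muscle stem cells (MuSCs), from which skeletal muscle is regenerated, taken from 9-week-old female mice of the genotype C57BL/6N(Tg(Pax7-EGFP)Tajb). A green fluorescent reporter under control of Pax7, a MuSC transcription factor, was used to sort the cells. Cultures were kept in low oxygen (3% O2). All cells, controls included, were kept for 6 h without serum together with BMPR-1A-Fc at 200 ng/mL, a soluble receptor that binds BMPs. Cells then received 100 ng/mL BMP6 or vehicle (4 mM HCl with 0.1% BSA) for 1 h, with 2 biological replicates per group. Each replicate number marks a batch that holds 1 BMP6 library and 1 vehicle library, so same-numbered libraries form a pair.

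The sarcomere is the repeating unit of striated muscle, in which myosin thick filaments pull on actin thin filaments. Troponin and tropomyosin on the thin filament make the pull depend on calcium, and titin, nebulin, alpha-actinin and myomesin hold the filaments in register. Many of these proteins come in variants: embryonic and perinatal myosins precede the adult ones, some cardiac variants are made for a time by young skeletal muscle cells, and adult fibres are slow or fast by the set that they keep.

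Rebuilt read numbers, in units of 1000000, were 108 to 112 per library, and 13002 to 13203 entries per library reached 1 TPM. Markers of the labelled cell type were present: Pax7 had 8.29 and 10.7 TPM in vehicle replicates 1 and 2 and 9.92 and 11.7 TPM in BMP6 replicates 1 and 2. Myog, a transcription factor of differentiating muscle cells, had 4452 and 5472 TPM with vehicle and 4399.5 and 5001 TPM with BMP6. Id1, a direct BMP target that serves as a check on the treatment labels, had 90.5 and 129 TPM with vehicle and 584 and 513 TPM with BMP6. Of 5 cardiomyocyte markers none exceeded 1.85 TPM (Tnni3, cardiac troponin I), and Myh6 (cardiac alpha myosin) reached 0.708 TPM. Of 5 smooth muscle or pericyte markers the highest was 4.93 TPM (Pdgfrb), and Myh11 (smooth muscle myosin) stayed at or below 0.0239 TPM.

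With vehicle, the contractile genes together had 37049 and 36984 TPM in replicates 1 and 2, which was 3.70% of all TPM in each library. The level of single genes spanned 4 orders of magnitude. Acta1, skeletal muscle alpha-actin, was the third most abundant of all entries at 11742 ± 121 TPM (SD, n = 2), and Myl2, the slow and ventricular regulatory light chain, had the lowest level at 1.14 ± 0.0202 TPM (SD, n = 2). By vehicle mean, 9 members had at least 1000 TPM, 17 had 100 to 1000, 10 had 10 to 100, and 6 were below 10 (Myom1, Myh2, Myh4, Myl3, Myoz1 and Myl2). Among the 100 most abundant entries of the table, 8 were members: Acta1, Actc1, Mylpf, Myl1, Tnni1, Tnnc1, Tnnt3 and Tnnt2. When the members were put in order of their vehicle mean, the vehicle ranges of 15 of the 41 neighbouring pairs overlapped. Such overlaps included Myl1 and Tnni1, Tnnt3 and Tnnt2, and Des and Myl4, although the first of each of these pairs was the higher one within both vehicle libraries.

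**Figure D1:**
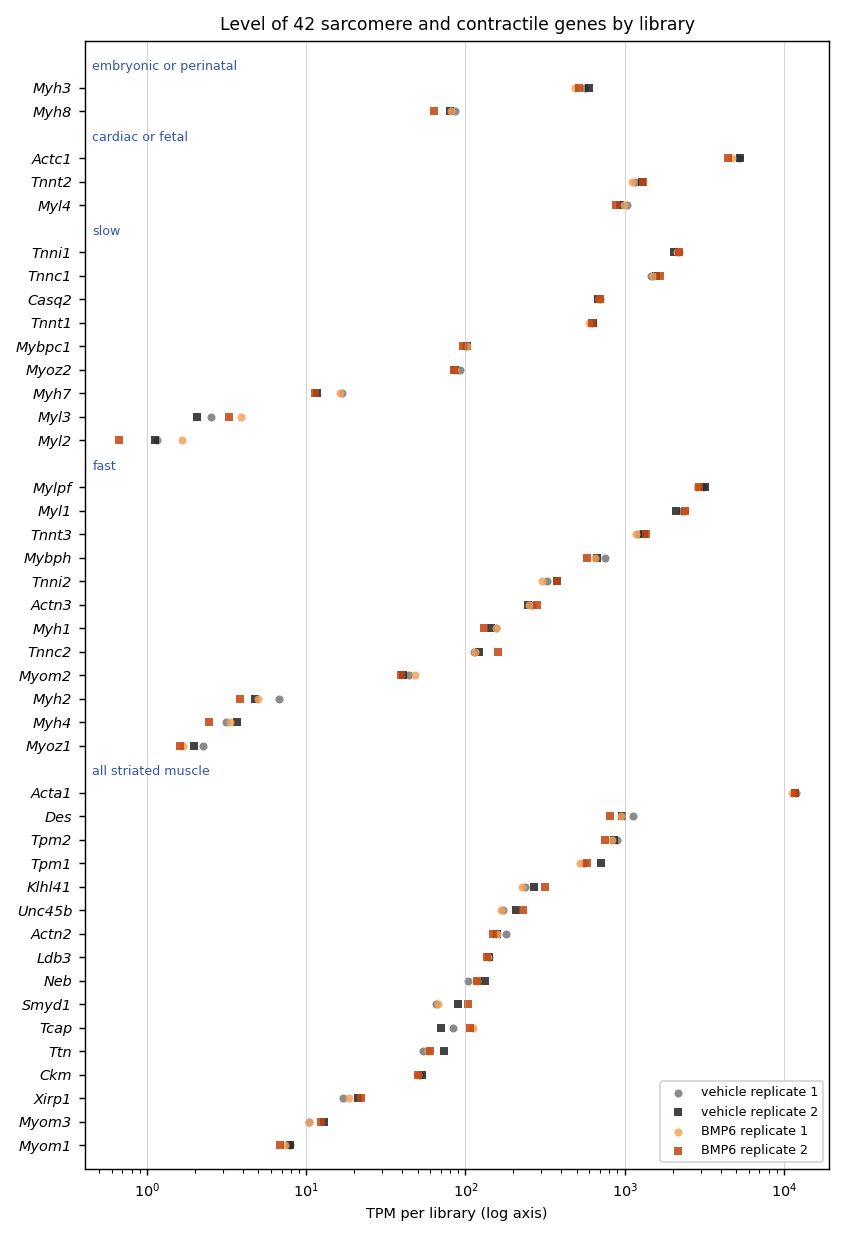
TPM of each of the 42 genes (log axis), with 1 point per library, for vehicle replicates 1 and 2 and BMP6 replicates 1 and 2, grouped by isoform class and ordered by vehicle mean. The levels run from 0.664 TPM (Myl2) to 11828 TPM (Acta1), and the 4 points of most genes lie close together.

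Levels differed widely between isoforms of the same protein family. Among the sarcomeric myosin heavy chains, the motor proteins of the thick filament, embryonic Myh3 had 560.4 and 593 TPM with vehicle and carried 69.2% ± 2.32 (SD, n = 2) of the family. Fast 2X Myh1 followed with 156 and 144 TPM, or 18.0% ± 1.16, and perinatal Myh8 with 86.0 and 79.9 TPM, or 9.95% ± 0.58 (SD, n = 2 each). Slow Myh7 had 16.9 and 11.6 TPM, fast 2A Myh2 6.72 and 4.80 TPM and fast 2B Myh4 3.14 and 3.66 TPM. The vehicle ranges of Myh3, Myh1, Myh8, Myh7, Myh2 and Myh4 did not overlap, so the order of the 6 myosins was the same in both vehicle libraries.

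The light chains, small subunits that sit on the neck of each myosin head, did not follow the same class. Mylpf, the fast regulatory light chain, had 3089.5 and 3210.1 TPM with vehicle, and Myl1, the fast essential light chain, had 2286 and 2099.5 TPM. Myl4, the essential light chain of atria and fetal skeletal muscle, had 1041 and 932 TPM. The slow and ventricular chains were at the foot of the list, with 2.51 and 2.06 TPM for Myl3 and 1.16 and 1.13 TPM for Myl2. Fast and fetal light chains thus made up nearly the whole light chain family, while the heavy chain family was mostly embryonic.

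Among the thin filament genes, Acta1 carried 69.1% ± 0.388 of the 2 sarcomeric actins and Actc1, cardiac alpha-actin, the other 30.9% (SD, n = 2). For troponin I, the subunit that blocks the actin and myosin contact at rest, slow Tnni1 had 2182 and 2039.8 TPM and fast Tnni2 324 and 374 TPM. For troponin C, the calcium sensor, Tnnc1 of slow and cardiac muscle had 1461 and 1575 TPM and fast Tnnc2 113 and 122 TPM. The slow gene was thus far above the fast one in both families, with 85.8% ± 1.81 of troponin I and 92.8% ± 0.00186 of troponin C (SD, n = 2 each). Troponin T, which ties the complex to tropomyosin, was split among fast Tnnt3 (40.7%), cardiac Tnnt2 (39.2%) and slow Tnnt1 (20.2%). Tnnt3 at 1212 and 1331 TPM and Tnnt2 at 1167 and 1283 TPM had overlapping ranges, with Tnnt3 above Tnnt2 within each of the 4 libraries. The tropomyosin genes Tpm2 and Tpm1 had 899.9 and 853 TPM and 557 and 714 TPM.

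Structural members also showed no single class. Of the alpha-actinins, which anchor thin filaments at the Z-disc, fast-fibre Actn3 had 260.5 and 248 TPM and Actn2 180.1 and 158 TPM. Of the myozenins, Z-disc proteins that bind calcineurin, slow Myoz2 carried 97.7% and fast Myoz1 had 2.25 and 1.97 TPM. Of the myomesins, which link thick filaments at the M-band, Myom2 carried 68.2%, Myom3 19.0% and Myom1 12.9%. Des, the muscle intermediate filament desmin, had 1120.2 and 955 TPM, and Mybph, a myosin-binding protein, had 752 and 675 TPM. Ckm, the muscle creatine kinase, was lower at 51.8 and 53.4 TPM.

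**Figure D2:**
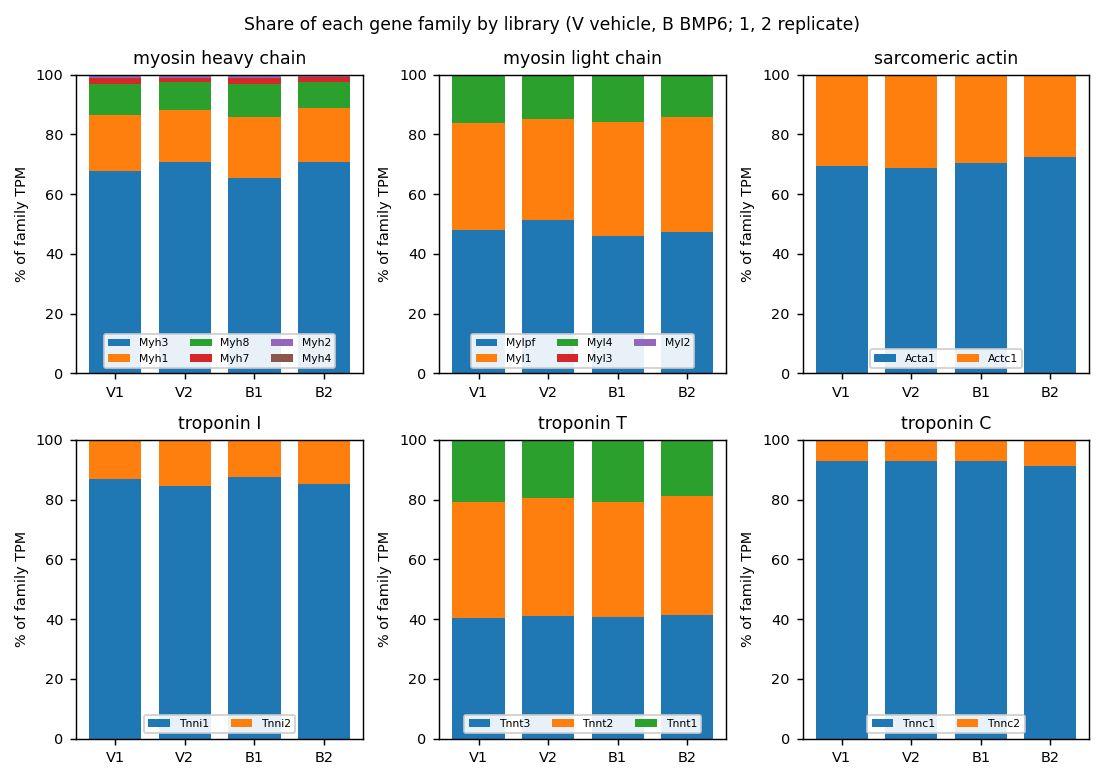
Percent of the summed TPM of 6 gene families carried by each gene (bars stacked from 0 to 100%) in vehicle replicates 1 and 2 (V1, V2) and BMP6 replicates 1 and 2 (B1, B2). Myh3 took 65.3% to 70.8% of the myosin heavy chains and Tnni1 84.5% to 87.6% of troponin I, and the order of the main genes in each family was the same in all 4 libraries.

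The sequence before the gene start that RefSeq gives is shown for Acta1, the most abundant member, and for Actc1, Des and Mybph, the members that were lower with BMP6 past the adjusted p when the replicate number was a block (values follow). Promoter sequences are from RefSeq, whose table was made for GRCm38.p6. The 250 bases before the start were found as exact matches in GRCm39 and are given with GRCm39 coordinates, 5′ to 3′ on the strand of the gene. Acta1 lies at chr8:124621515-124621764 on the minus strand, Actc1 at chr2:113883357-113883606 on the minus strand, Des at chr1:75336686-75336935 on the plus strand and Mybph at chr1:134120936-134121185 on the plus strand. Against the gene starts in the authors' files, the window ends 24 bases before Acta1, 37 bases before Des and directly at Mybph, and it runs 12 bases into Actc1. Capitals mark the letters TATAAA, a CArG box or an E-box of the form CAGCTG in these windows.
Acta1: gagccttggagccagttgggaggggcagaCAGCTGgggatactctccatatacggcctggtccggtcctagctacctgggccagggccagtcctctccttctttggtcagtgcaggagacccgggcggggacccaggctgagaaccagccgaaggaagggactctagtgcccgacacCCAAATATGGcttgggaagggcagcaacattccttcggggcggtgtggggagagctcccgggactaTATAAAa
Actc1: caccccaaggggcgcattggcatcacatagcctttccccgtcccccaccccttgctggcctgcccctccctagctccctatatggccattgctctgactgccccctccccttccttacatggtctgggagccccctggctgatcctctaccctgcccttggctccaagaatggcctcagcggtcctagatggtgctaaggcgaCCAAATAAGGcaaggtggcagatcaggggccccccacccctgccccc
Des: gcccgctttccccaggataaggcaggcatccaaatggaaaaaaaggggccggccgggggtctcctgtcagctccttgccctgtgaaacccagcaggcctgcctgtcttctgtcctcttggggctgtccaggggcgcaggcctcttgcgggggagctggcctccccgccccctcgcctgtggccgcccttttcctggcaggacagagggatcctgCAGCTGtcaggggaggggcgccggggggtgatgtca
Mybph: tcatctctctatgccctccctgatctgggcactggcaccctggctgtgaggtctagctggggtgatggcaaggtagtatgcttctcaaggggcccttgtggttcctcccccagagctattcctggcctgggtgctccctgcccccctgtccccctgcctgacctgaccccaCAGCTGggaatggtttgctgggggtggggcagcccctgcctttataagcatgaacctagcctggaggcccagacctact

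All 3 motifs lie in the Acta1 window, a CArG box in that of Actc1, and the E-box in those of Des and Mybph. This E-box is a form of the general E-box (CANNTG) bound by myogenic basic helix-loop-helix factors, the CArG box is bound by serum response factor, and the MEF2 site by MEF2 factors. Promoters of 34 of the 42 members were in the table (39 promoters, since some genes have more than 1). Tcap, Tnnt3, Xirp1, Myom2, Myoz1, Actn3, Neb and Tnni2 had none there. Motifs were searched over these 250 bases on both strands, TATAAA on the strand of the gene alone, and a MEF2 site can hold the letters TATAAA as well. The E-box CAGCTG was in 38.5% of the member promoters and in 13.0% of all 32851 promoters of the same length. A CArG box was in 17.9% of member promoters (all promoters, 1.47%), a MEF2 site in 20.5% (2.92%) and CANNTG, which includes CAGCTG, in 82.1% (66.2%). TATAAA was in 12.8% (7.59%), CATTCC, the MCAT core bound by TEAD factors, in 25.6% (12.6%), and GGCGCC, a GC-rich element bound by SMAD1/5, in 2.56% (9.59%). These are counts of letters in a window, and no binding was measured here. The GGCGCC of Des was the single member promoter with that element.

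The comparison of BMP6 with vehicle asks whether contractile gene expression had moved 1 h after BMP6 was added. With limma and Benjamini-Hochberg adjustment on log2(TPM + 1), 0 of the 42 members passed an adjusted p of 0.1, where 0.244% of all tested entries did, and 0 also reached a 2-fold change (all entries, 0.206%). At an unadjusted p under 0.05 there were 4 members, Tcap, Actc1, Myl3 and Myh3 (all entries, 3.2%), and voom on rebuilt reads gave 0 past the adjusted p. The members had a median log2 fold change of -0.04, beside 0.02 for all tested entries, and the median was -0.05 within each pair. No member had a 95% interval that reached a 2-fold change in either direction. Summed TPM was 35078 and 35936 with BMP6, below both vehicle libraries, with log2 ratios of -0.08 and -0.04 within pairs 1 and 2. In bulk libraries, fewer cells that express these genes and less RNA per cell cannot be told apart.

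Of the 42 members, 20 were lower with BMP6 in both pairs (all entries, 25.7%), 7 were higher in both (35%) and 15 went in different directions in the 2 pairs. The 2 BMP6 values lay below both vehicle values for 13 members (all entries, 11.6%) and above both for 3, Tcap, Myl3 and Myl1 (16.6%). In 22 members the difference between replicate numbers was larger than that between BMP6 and vehicle, and the same held for 64.2% of all entries. With the replicate number as a block in the fit, 4 members passed the adjusted p (all entries, 1.64%): Actc1, Des and Mybph were lower (all entries lower, 0.404%) and Tcap was higher (1.23%). At an unadjusted p under 0.05 in limma with this block there were 14 of the 42 members (all entries, 12.9%).

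**Figure D3:**
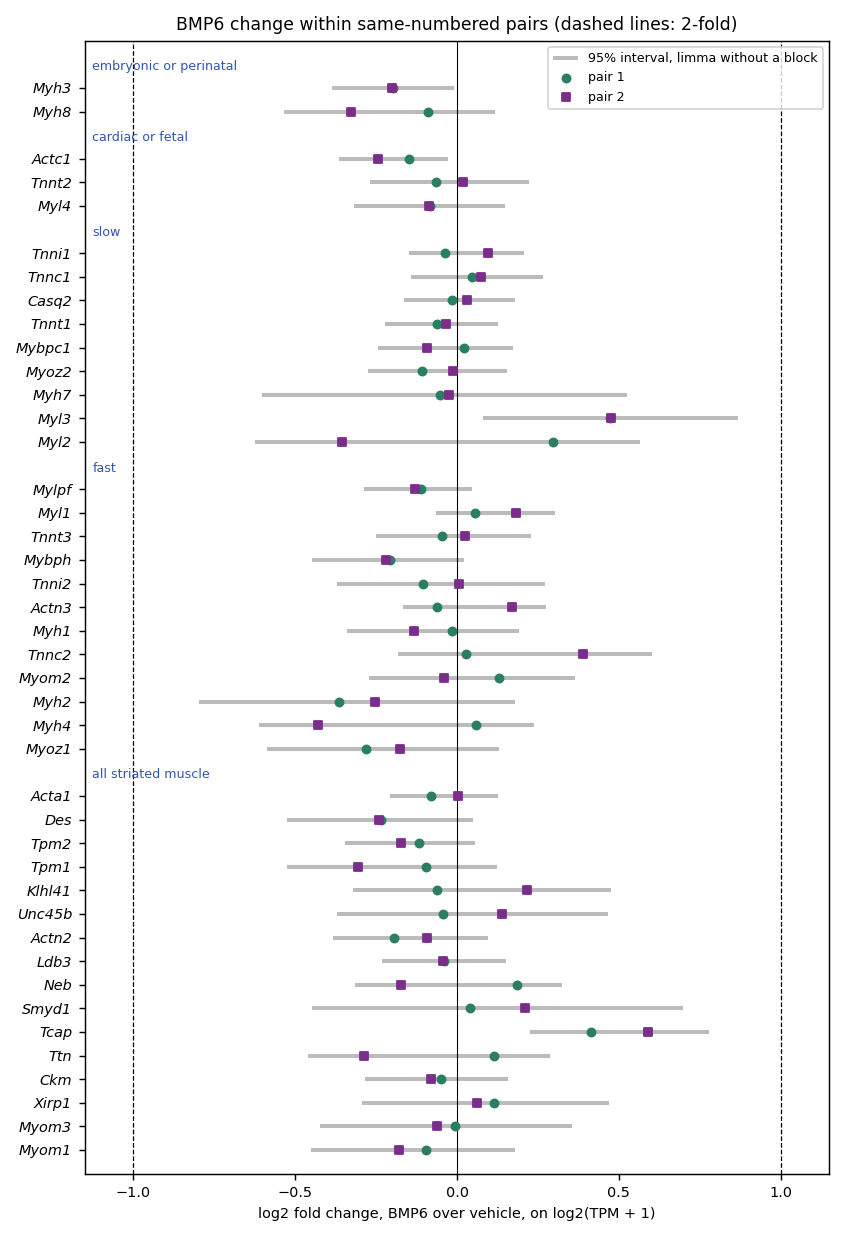
Change with BMP6 for each of the 42 genes as log2 fold change on log2(TPM + 1), within pair 1 (circles) and pair 2 (squares), with the 95% interval of limma without a block as a grey bar and dashed lines at a 2-fold change. All intervals lie inside the dashed lines. Tcap (0.41 and 0.59) and Myl3 (0.47 and 0.47) lie furthest to the right in both pairs.

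Tcap (telethonin, chr11:98274637-98275779 in GRCm39), a Z-disc cap on the end of titin, had 83.9 and 70.2 TPM in vehicle replicates 1 and 2 and 112 and 106 TPM in BMP6 replicates 1 and 2. Both BMP6 libraries were above both vehicle libraries. The log2 fold change was 0.50 (SE 0.11, 95% interval 0.23 to 0.78) with 0.41 and 0.59 within the pairs. In limma with Benjamini-Hochberg adjustment the adjusted p was 0.699, and with the replicate block it was 0.0117. Myl3 was at a far lower level, with 2.51 and 2.06 TPM and 3.87 and 3.25 TPM, or 0.47 on the log2 scale (SE 0.16), and limma gave it an adjusted p of 1.00, or 0.148 with the block. Its groups did not overlap either, but it did not pass the adjusted p in either fit. The size of its log2 fold change depended on the pseudocount, with 0.62 for a pseudocount of 0.1 and 0.23 for 5. Myl3 had 120 to 228 rebuilt reads per library, and an exon overlaps Pth1r on the other strand by 95 bases. Pth1r had 2.53 and 2.02 TPM with vehicle and 1.03 and 2.33 TPM with BMP6. Since the libraries do not keep strand, the value of Myl3 is uncertain.

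Des (chr1:75336973-75345223) had 1120.2 and 955 TPM with vehicle and 952 and 807 TPM with BMP6. The library with vehicle replicate 2 and that with BMP6 replicate 1 were close together, and the difference is seen within each pair. The log2 fold change was -0.24 (SE 0.12), with -0.23 and -0.24 within the pairs, and the adjusted p in limma was 1.00, or 0.0312 with the replicate block. Mybph (chr1:134121186-134128970) showed the same layout, with 752 and 675 TPM and 651 and 579 TPM. Both BMP6 values were below both vehicle values, with a log2 fold change of -0.21 (SE 0.10, -0.21 and -0.22 within the pairs) and an adjusted p in limma of 1.00, or 0.0717 with the block. Leaving out 1 library leaves its partner unpaired, so the fit without a block then also takes in the difference between replicate numbers. That difference (replicate 2 over replicate 1) was -0.23 for Des and -0.16 for Mybph on the log2 scale. Without BMP6 replicate 2 or without vehicle replicate 1, the log2 fold change without a block was -0.12 for Des in either case. For Mybph it was -0.13 and -0.14. Other alternatives gave larger changes, down to -0.36 for Des and -0.30 for Mybph.

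Actc1 (chr2:113877763-113883368) had 5233 and 5291 TPM with vehicle and 4718 and 4470.4 TPM with BMP6. The groups were apart, and the change was -0.20 on the log2 scale (SE 0.07, -0.15 and -0.24 within the pairs), with an adjusted p in limma of 1.00 and of 0.0320 with the replicate block. In voom on rebuilt reads with the replicate block, its adjusted p was 0.0721. Under quantile normalization, its log2 fold change was -0.04. That method gives entries of equal rank the same value in every library, and Actc1 ranked 13 among all entries by vehicle mean. A change that keeps the rank would therefore not be seen there. Acta1, the other sarcomeric actin, had 11828 and 11656 TPM and 11178 and 11667 TPM, and its groups overlapped (log2 fold change -0.04, SE 0.07). The share of Acta1 in the 2 actins was 69.3% and 68.8% with vehicle and 70.3% and 72.3% with BMP6.

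By class, the embryonic and perinatal myosins were both lower in both pairs. Myh3 (chr11:66969126-66993117) had 560.4 and 593 TPM with vehicle and 489 and 516 TPM with BMP6, with no overlap and nearly the same change in each pair (-0.20 and -0.20). Its log2 fold change of -0.20 (SE 0.08) had an adjusted p in limma of 1.00, and of 0.109 with the block. Myh8 had 86.0 and 79.9 TPM and 80.7 and 63.5 TPM, and its groups overlapped. The sum of the 6 myosin heavy chains was 829 and 837 TPM with vehicle and 749 and 729 TPM with BMP6, and most of that difference was in Myh3. The share of Myh3 in the family was 67.6% and 70.8% with vehicle and 65.3% and 70.8% with BMP6, which overlap.

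Of the 3 cardiac or fetal members, Actc1 and Myl4 were lower in both pairs and Tnnt2 was not. Myl4 had 1041 and 932 TPM and 983 and 877 TPM, with -0.08 and -0.09 on the log2 scale within the pairs. The 9 slow members had a median log2 fold change of -0.03, with 3 lower and 2 higher in both pairs. Tnnc1 was higher in both pairs (1461 and 1575 TPM with vehicle, 1509.6 and 1659 TPM with BMP6), and its groups overlapped. Casq2, the calcium-binding calsequestrin of the sarcoplasmic reticulum, had 701 and 681 TPM and 693 and 696 TPM, which also overlap.

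The 12 fast members had a median of -0.06, with 5 lower and 2 higher in both pairs. The main fast light chains differed in sign: Mylpf had 3089.5 and 3210.1 TPM with vehicle and 2861 and 2933 TPM with BMP6, while Myl1 had 2286 and 2099.5 TPM and 2378 and 2383 TPM. Neither set overlapped, and neither gene passed the adjusted p (log2 fold changes -0.12 and 0.12, each with an adjusted p of 1.00 in limma, and 0.183 and 0.280 with the block). Mylpf was 48.1% and 51.4% of the light chains with vehicle and 45.9% and 47.3% with BMP6, and Myl1 was 35.6% and 33.6% with vehicle and 38.2% and 38.5% with BMP6. The value of Myl1 is uncertain, since 421 of its bases are 99.3% identical to the pseudogene Mylf-ps, which had a mean of 94.2 TPM. The fast myosins Myh2 (6.72 and 4.80 TPM and 5.00 and 3.86 TPM) and Myh4 (3.14 and 3.66 TPM and 3.32 and 2.46 TPM) were low in every library.

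The 16 members that belong to all striated muscle or are not specific to 1 of the other classes had a median of -0.04. Tpm1 and Tpm2 were lower in both pairs: Tpm1 had 557 and 714 TPM and 521 and 578 TPM, Tpm2 had 899.9 and 853 TPM and 830.0 and 756 TPM, and for Tpm2 alone the groups did not overlap. Ttn and Neb, the genes of the giant proteins that run along the thick and thin filaments, were each higher in pair 1 and lower in pair 2. Ttn had 53.7 and 72.9 TPM with vehicle and 58.2 and 59.5 TPM with BMP6, and Neb had 103 and 133 TPM and 117 and 117 TPM. For both genes the BMP6 values lay between the vehicle values.

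Smyd1, Unc45b and Klhl41, which help to build the sarcomere, differed more by replicate number than by treatment. Smyd1, a methyltransferase that acts with the myosin chaperone, had 65.6 and 89.3 TPM with vehicle and 67.5 and 103 TPM with BMP6. Unc45b, that chaperone, had 173 and 209 TPM and 168 and 230.4 TPM, and Klhl41, a stabiliser of nebulin, had 238 and 270.5 TPM and 228 and 315 TPM. In each of these genes both replicate 2 libraries were above both replicate 1 libraries, by 0.52, 0.36 and 0.33 on the log2 scale. Myh7, at 16.9 and 11.6 TPM and 16.2 and 11.4 TPM, went the other way, with replicate 2 lower by 0.49 on the log2 scale, and Des was also lower in replicate 2.

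The change was then followed in single transcripts, a step chosen after the data had been seen. The files hold 146 transcripts of the 42 genes, from 1 (12 genes) to 21 (Tnnt3). Of these, 112 had a mean of at least 1 TPM and 0 passed an adjusted p of 0.1 in limma, without or with the replicate block, beside 0.0672% and 0% of all 19346 tested transcripts. At an unadjusted p under 0.05 there were 14 without the block (all transcripts, 4.72%) and 18 with it (6.39%).

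Tnni1 showed a different split between transcripts with a similar gene total of 2182 and 2039.8 TPM with vehicle and 2125 and 2181 TPM with BMP6. Tnni1-205 had 306 and 324 TPM with vehicle and 577 and 546 TPM with BMP6, which differ by 0.83 on the log2 scale (SE 0.07; limma gave an adjusted p of 0.136, or 0.445 with the block). Tnni1-207, the main transcript, had 1715 and 1533 TPM and 1311 and 1385 TPM (log2 fold change -0.27, SE 0.08). Its share of the gene was 78.6% and 75.2% with vehicle and 61.7% and 63.5% with BMP6. Tnni1-206, a minor transcript, had 18.5 and 19.1 TPM and 3.43 and 4.18 TPM (log2 fold change -2.05, SE 0.15, adjusted p in limma 0.120, or 0.445 with the block). The groups of all 3 transcripts were apart, but none passed the adjusted p. Among all gene entries, groups were apart for 11.6% with BMP6 lower and 16.6% with BMP6 higher. The share among all transcripts was not counted. Tnni1-205 and Tnni1-207 share the exons from position 135730332 of chromosome 1 (GRCm39) onward. Before it, Tnni1-205 has 1 exon at chr1:135727571-135727758, and Tnni1-207 has 2 exons, at chr1:135727140-135727234 and chr1:135727711-135727758. The second of these exons of Tnni1-207 lies within the first exon of Tnni1-205. StringTie assigned the reads of the shared exons to these transcripts. In the first exon of Tnni1-207, listed coverage was 1811 and 1545 with vehicle and 1723 and 1654 with BMP6, which overlap. For the first exon of Tnni1-205 it was 406 and 451 with vehicle and 694 and 637 with BMP6, which do not. That exon holds the second exon of Tnni1-207, and the first exon of Tnni1-207 overlaps that of Tnni1-206. Reads in both exons were therefore assigned by StringTie as well, and neither coverage is a separate measure of 1 transcript. The lower level of Tnni1-207 with BMP6 was not seen in the coverage listed for its first exon, and the cause was not tested.

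**Figure D4:**
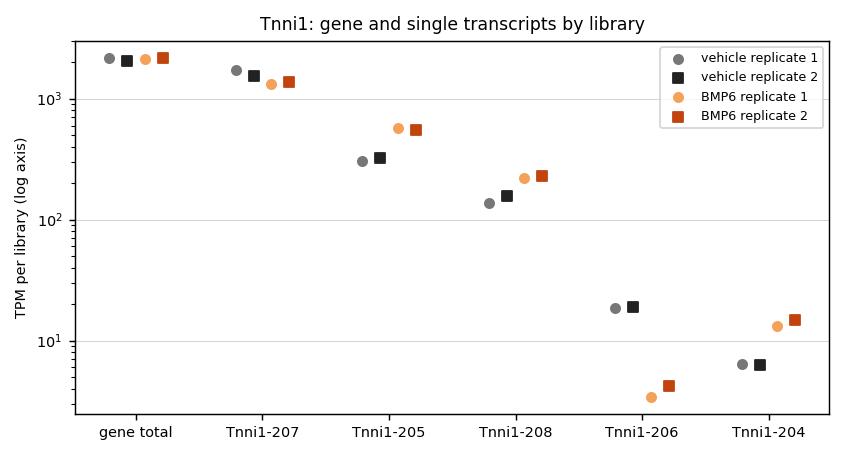
TPM (log axis) of the Tnni1 gene and of its 5 tested transcripts in vehicle replicates 1 and 2 and BMP6 replicates 1 and 2. The gene totals overlap between groups (2040 to 2182 TPM with vehicle, 2125 to 2181 TPM with BMP6), whereas the BMP6 points of Tnni1-205, Tnni1-208 and Tnni1-204 lie above and those of Tnni1-207 and Tnni1-206 below the vehicle points.

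Not every such split was stable between replicates. Myl1-202 had 322 and 1022 TPM with vehicle and 1689 and 1467 TPM with BMP6, and Myl1-201 had 1674 and 1011 TPM and 642 and 859.6 TPM. Vehicle replicate 2 was nearer to BMP6 replicate 2 than to vehicle replicate 1 in Myl1-202. For Myh1, the minor transcript Myh1-201 had 16.6 and 13.1 TPM with vehicle and 5.92 and 5.51 TPM with BMP6 (log2 fold change -1.23, adjusted p in limma 0.303).

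Coverage along the transcript was compared because cDNA made from the polyA end can lose the far 5′ part of long transcripts. Of the 13 members whose main transcript had at least 5000 bases, 9 had lower coverage in the first 20% than in the last 20% of the exons in every library. Ttn, Neb and Ldb3 had higher coverage in the first 20%, and Myh4 had no value in vehicle replicate 1, where its main transcript was listed at 0. For Ttn (107447 bases) the ratio of the first to the last 20% was 1.68 and 1.57 with vehicle and 1.54 and 1.53 with BMP6, and for Neb (23256 bases) it was 7.10 and 7.18 with vehicle and 6.68 and 6.32 with BMP6. In Neb the first 5% of the exons had 10.8 to 11.6 times the mean coverage of the transcript. The TPM of Neb therefore averages over a very uneven profile. Ttn-202, a shorter transcript of 16983 bases, took 53.4% and 46.3% of Ttn with vehicle and 45.7% and 43.0% with BMP6.

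**Figure D5:**
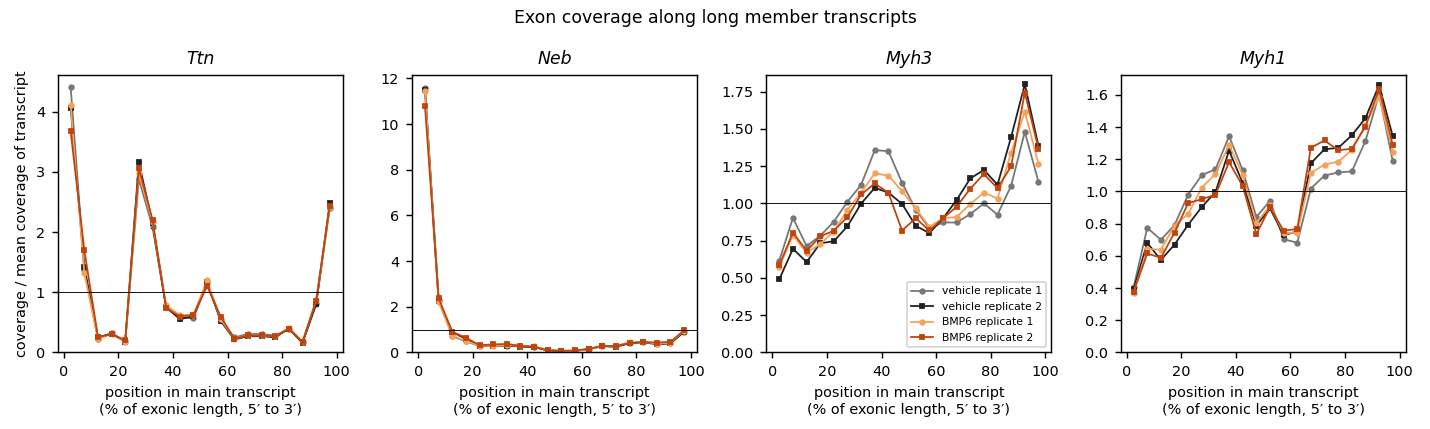
Exon coverage divided by the mean coverage of the main transcript, in 20 bins from 5′ to 3′ (percent of exonic length), for Ttn, Neb, Myh3 and Myh1 in the 4 libraries. Neb peaks in its first bin at 10.8 to 11.6 and Ttn at 3.67 to 4.41, while Myh3 and Myh1 are highest near the 3′ end.

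Other genes of the sarcomere and of calcium handling gave a comparison list of 54 names, of which 53 were found and 49 tested. In limma, 0 of the 49 passed the adjusted p, without or with the replicate block (at an unadjusted p under 0.05, 0 without and 6 with it, beside 3.2% and 12.9% of all entries), and voom on rebuilt reads gave 0 as well. Of these genes 34 were lower and 15 higher, with a median log2 fold change of -0.05, beside -0.04 for the members. The most abundant were Cryab, a small heat shock protein that binds desmin (1049 and 1041 TPM with vehicle, 1044 and 1032 TPM with BMP6), Pdlim3, an alpha-actinin partner (1019.8 and 1019.8 TPM and 965 and 941 TPM), and Ankrd1, a titin-binding repeat protein (429 and 542 TPM and 502 and 493 TPM). They were followed by Pdlim7 (391 and 517 TPM and 425 and 529 TPM) and Atp2a1, the fast calcium pump (426 and 383 TPM and 385 and 383 TPM). Both BMP6 values of Pdlim3 were below both vehicle values (log2 fold change -0.10, SE 0.07).

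Nonmuscle counterparts of the members were also expressed. Of 9 listed, 8 were found, 0 passed the adjusted p in limma, without or with the block (at an unadjusted p under 0.05, 0 and 1), and their median log2 fold change was 0.06. Actb had 2834 and 2282 TPM with vehicle and 2651 and 2351 TPM with BMP6, below Acta1 and Actc1 in every library. Myl6 had 1512 and 1505 TPM, Actg1 915 and 939 TPM, Tpm4 670.0 and 625 TPM and Actn4 128 and 118 TPM with vehicle. Nonmuscle myosins Myh9 (7.80 and 8.20 TPM) and Myh10 (4.78 and 6.43 TPM) and Actn1 (4.39 and 6.05 TPM) were low, here in BMP6 replicates 1 and 2.

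The transcription factors of this program did not pass the adjusted p. The log2 fold change of Mef2c was -0.06 (SE 0.10) beside -0.07 for Myog and 0.13 for Myod1, and limma gave all 3 an adjusted p of 1.00. Fibroblast markers were mixed: Col1a2 reached 240 TPM, while Pdgfra stayed at or below 0.164 TPM, and their summed level was 291 to 406 TPM with BMP6 and 330 to 403 TPM with vehicle. Of 4 endothelial and 3 immune markers, none was above 1.68 TPM in any library, and Kdr was listed at 0 in all 4. Their part in the results was not tested.

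Strand and shared sequence limit some values. Exons of 27 members overlap a gene on the other strand, and the libraries do not keep strand. Among the neighbours with a TPM value here, the most abundant was Ube2c at 486 to 535 TPM, which shares 160 exonic bases with Tnnc2 (113 and 122 TPM with vehicle, 115 and 159 TPM with BMP6), so the value of Tnnc2 is uncertain. In all, 11 members share at least 100 bases at 98% identity or more with another tested gene, Mybph among them (289 bases with Adora1, mean 3.60 TPM). Myh2 is another, with 240 bases at 100% identity to 9430073C21Rik, a gene on the other strand. That gene had 5.01 and 5.83 TPM with vehicle, beside 6.72 and 4.80 TPM for Myh2, so the value of Myh2 is uncertain.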

How the data were processed

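Cultured mouse MuSCs gave 4 RNA-seq libraries, and group and replicate number were taken from the labels. PolyA RNA was turned into full-length amplified cDNA and unstranded paired-end libraries without molecular identifiers. The authors aligned reads with STAR 2.7.11a to GRCm39 with the GENCODE annotation, used SAMtools 1.17, assembled and merged transcripts with StringTie 2.2.1 and then measured every library on that merged set. The StringTie correction for multiply aligned reads was switched off, per the file headers, so genes with near-identical copies keep those reads.

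The authors deposited TPM per gene and per transcript, where each library sums to 1000000, and FPKM per gene. The deposited signal is coverage (the average number of aligned bases over a transcript), which the authors left unscaled. The files used here hold no counts. Reads were rebuilt as coverage times length over a read length of 100 bases, and count both ends of a pair rather than independent molecules.

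The main test was limma 3.58.1 (R 4.3.3; lmFit and eBayes with a trend) without a block, two-sided, on log2(TPM + 1) of the 13128 entries whose mean was 1 TPM or more, with Benjamini-Hochberg adjustment and thresholds of 0.1 and a 2-fold change. Steps were tested on simulated data. Fold changes on this scale understate changes of low genes. With 2 libraries against 2, no exact permutation test can go below 0.333. In the labels the replicate number is the batch, so same-numbered libraries are paired, and their deviations from the group means had a correlation of 0.563 across the tested entries, which are not independent replicates. The fit with the replicate as a block, which leaves 1 residual degree of freedom per entry, was an alternative. So were other pseudocounts, filters, scalings, voom on rebuilt reads and leaving out each library. FPKM was used for the family shares and not for a fit. Copies were searched with BLAST 2.17.0. Motif and promoter windows were read from a RefSeq table.

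All 42 members could be named. Of other genes, the 5 most abundant of the comparison list, the nonmuscle list, Myog, Myod1, Mef2c, Id1 and defining markers were named. Members, classes and lists were chosen with earlier results of these data known.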

Additional observations from a re-analysis of the deposited data

How the results depend on the processing

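Over all alternatives run, 0 members passed the adjusted p together with a 2-fold change, and 0 genes of the other sarcomere and calcium-handling list passed the adjusted p. The number of members past the adjusted p was 0 without pairing in every alternative. It was 4 with the replicate block and 5 in voom on rebuilt reads with the replicate block, where Myh3 was added (adjusted p = 0.0677), and the block changed no other call on members or transcripts. For the 4 members called with the block, adjusted p over the alternatives in limma ranged from 0.0117 to 1.00 for Tcap, 0.0312 to 1.00 for Des, 0.0320 to 1.00 for Actc1 and 0.0717 to 1.00 for Mybph. With 1 library left out, the log2 fold change also took in the difference between replicate numbers. That of Des moved from -0.24 to -0.12 without BMP6 replicate 2 or without vehicle replicate 1, and that of Mybph from -0.21 to -0.13 and -0.14. Over all alternatives it ranged from -0.36 to -0.12 for Des and from -0.30 to -0.13 for Mybph. Quantile normalization, which gives entries of equal rank the same value in every library, brought Actc1 to -0.04. The median log2 fold change of the members was -0.04 with a pseudocount of 0.1 (-0.0446), -0.06 under quantile normalization (-0.0604), -0.06 in voom without the block (-0.0574) and -0.06 with it (-0.0576). It ranged from -0.0707 (without BMP6 replicate 2) to -0.0281 (without vehicle replicate 2) when libraries were left out, and was -0.0705 without vehicle replicate 1. The cause was not tested. Between the first and last 10% of the exons, in place of 20%, the coverage ratio was 1.73 for Ttn and 10.6 for Neb with vehicle. Direction changed for Acta1, Casq2 and Neb under quantile normalization and for Casq2, Neb and Ttn in voom, whose log2 fold changes lay between -0.09 and 0.01. When 1 library was left out, 5 to 11 of the members changed sign. Family shares are the same in FPKM and TPM by construction, so FPKM gave no check of them. The 95% intervals of the members in limma reached up to 0.87 from 0 on the log2 scale (Myl3).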
